A study of Mus musculus with 7 samples.

Results

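The 7 genes described here mark the epicardium, the cell layer that comes to cover the heart, and its source, the proepicardium. They are Wt1, Tcf21, Tbx18, Upk1b, Upk3b, Fam70a and Msln, taken by symbol from the 23284 genes of the count tables, and all 7 had a row. The libraries came from the atrioventricular canal, the part of the embryonic heart tube where valves begin to form. The Hand2 null group held 4 pools from Hand2 d/d embryos, in which germline Cre deletion had removed the coding part of Hand2, and the wild-type group held 3 pools. All embryos were outbred NMRI mice with 18 to 23 somites, given in the labels as embryonic day 9.0 and shortly after (9.5 in the titles), and each pool of 4 canals was 1 replicate. Pools were matched for somite stage and sex ratio, and a wild-type pool with RNA of lower quality was left out before sequencing.

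The proepicardium is a cluster of mesothelial cells beside the venous pole, next to the sinus venosus and the septum transversum. Its cells cross to the heart and spread as the epicardium, and some later leave that layer and become fibroblasts and vessel wall cells. HAND2, a basic helix-loop-helix transcription factor, acts in heart mesenchyme and muscle and is also present in mouse epicardial cells.

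Between 27905601 and 44860753 reads per library lay in genes, and 3 reads, taken as the floor of detection, equalled 0.0669 to 0.108 counts-per-million units (CPM). Hand2 had 0.187, 0.792, 0.349 and 0.36 CPM in null libraries 1 to 4, against 47.3, 42.3 and 42.8 CPM in wild-type libraries 2 to 4, so each library matched its label. Markers of the dissected tissue were abundant. The summed level of 10 myocardial genes was 32900 to 38600 CPM in null libraries, against 31900 to 36300 CPM in wild-type libraries, an overlap between genotypes. Null library 2 had the highest share of reads outside genes (14.21%, against 7.31% to 10% in the others), and wild-type library 4 had the highest summed level of primitive blood genes (22100 CPM, against 5610 to 14500 CPM in the others).

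Transcripts of 6 markers were present in all 7 libraries, and 1 of these markers, Fam70a, rose in the null. Its mean was 6.16 ± 2.32 CPM in null (SD, n = 4) and 1.11 ± 0.661 CPM in wild-type libraries (SD, n = 3). In pooled tissue, a change in the number of cells of a type and a change in RNA per cell cannot be told apart. Wt1 was higher in every null library than in any wild-type library but did not pass the test, and Tcf21, Tbx18, Upk1b and Upk3b overlapped between the genotypes. Of the 7 markers, 6 passed the filter on low counts, and Msln, at 0 to 10 reads, did not. With the quasi-likelihood test of edgeR over all genes and a Benjamini-Hochberg adjusted p under 0.05 as the call, 1 of these 6 was higher and none was lower in the null; the other 5 had an unadjusted p of 0.0177 for Wt1 and 0.119 to 0.91 for the rest, and DESeq2 also called 1 higher and 0 lower. Over the 14290 genes tested, 4.11% were called higher and 2.13% lower in the null.

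**Figure D1:**
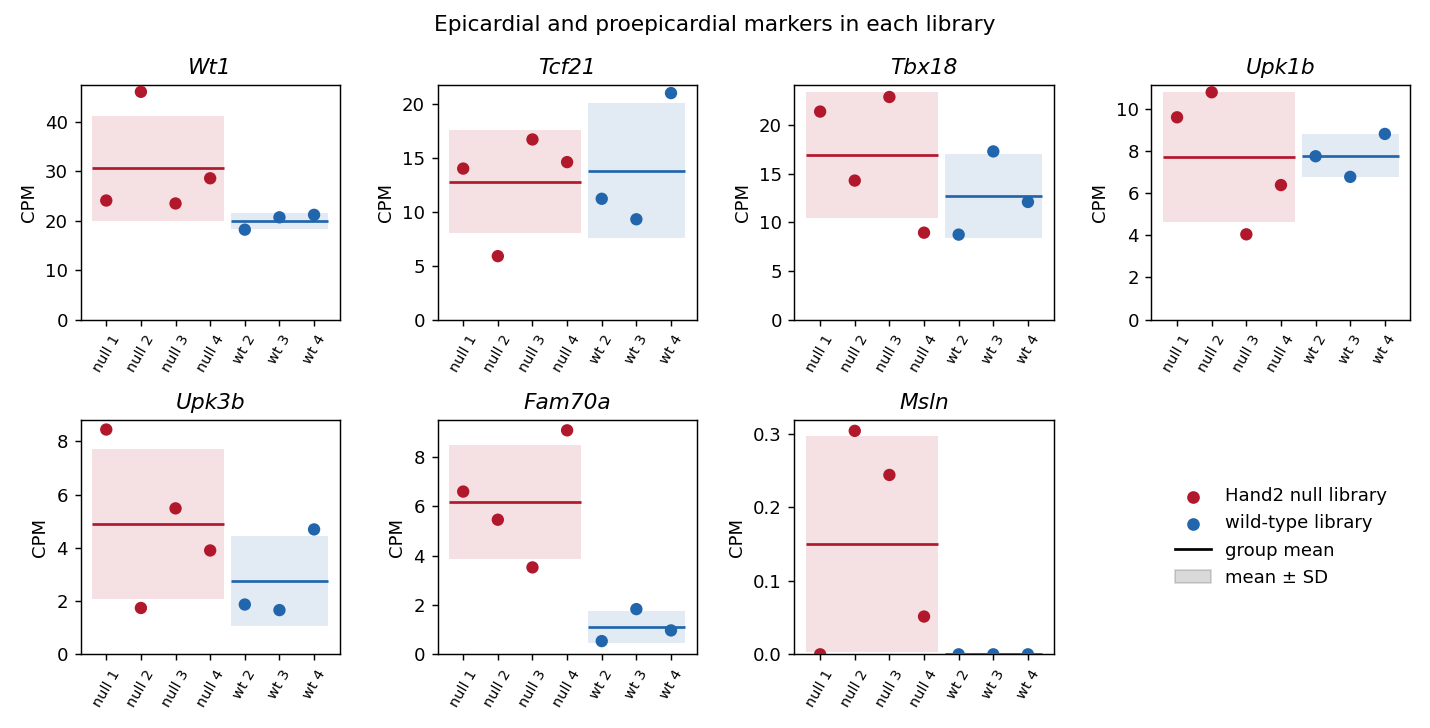
Level of each marker in each library, in CPM on a linear axis that starts at 0, with 4 Hand2 null libraries (red) left of 3 wild-type libraries (blue). Lines are group means and bands the mean ± SD; the Fam70a points lie at 3.52 to 9.07 CPM in null libraries, against 0.535 to 1.83 CPM in wild-type libraries, while those of Tcf21, Tbx18, Upk1b and Upk3b overlap.

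Among the transcription factors, Wt1 encodes a zinc finger protein of mesothelia that is required for a normal epicardium. It had 24.1, 46.1, 23.5 and 28.6 CPM in null libraries 1 to 4, against 18.2, 20.7 and 21.2 CPM in wild-type libraries 2 to 4. All null values thus lay above all wild-type values, a separation that 11.6% of the tested genes showed in this direction, and null library 2 stood highest. The log2 fold change was 0.58 (SE 0.211, edgeR adjusted p = 0.118), and 0.35 (adjusted p = 0.255) without null library 2. Over the 7 fits with 1 library left out, the adjusted p ran from 0.0531 to 0.347.

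Tcf21 (epicardin) encodes a basic helix-loop-helix factor of the proepicardium and of cells that later become cardiac fibroblasts, and is also expressed in pharyngeal muscle precursors. It had 14, 5.88, 16.7 and 14.6 CPM in null libraries 1 to 4, against 11.2, 9.3 and 21 CPM in wild-type libraries 2 to 4. The lowest value thus belonged to a null library and the highest to a wild-type library. Its log2 fold change was -0.11 (SE 0.352, adjusted p = 0.886), and it became positive without null library 2 (0.14), without wild-type library 4 (0.31) or without both (0.56, adjusted p = 0.175). Wild-type library 4, highest in Tcf21, also had the highest summed level of 9 pharyngeal and somite markers, 22.4 CPM, against 5.52 to 13 CPM in null libraries and 8.44 to 11.3 CPM in the other wild-type libraries. Of these 9, the 4 that could be tested had edgeR adjusted p-values of 0.12 to 0.99, and Tbx1, Myf5, Pax1, Msc and Uncx did not pass the filter. Myf5, a factor of muscle precursors, had 7.63 CPM in wild-type library 4 and 0 to 0.103 CPM in the other libraries. Meox1, Pax3 and Uncx were also highest in wild-type library 4 (7.53, 2.65 and 0.287 CPM). Tbx1 (0.0358 CPM), Foxc2 (3.98 CPM) and Dlx5 (0.251 CPM) were not, and Msc and Pax1 had 0 reads there. The part of these tissues in the Tcf21 values was not tested.

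Tbx18, a T-box factor of the proepicardium and epicardium, is also expressed in the sinus horns. It had 21.4, 14.3, 22.9 and 8.94 CPM in null libraries 1 to 4, against 8.74, 17.3 and 12.1 CPM in wild-type libraries 2 to 4. Null libraries 1 and 3 lay above the wild-type range and null libraries 2 and 4 within it. The log2 fold change was 0.40 (SE 0.33, adjusted p = 0.494), between 0.18 and 0.70 with 1 library left out. An unnamed transcript on the opposite strand, D030062O11Rik, covers 20.6% of the exon bases of Tbx18 in the GRCm38 annotation. The reads were unstranded, so reads from both would not be separated there.

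The other 4 markers lie at or in the cell membrane. Upk1b encodes a uroplakin of the tetraspanin family, best known from the urothelium and also found in mesothelium. It had 9.61, 10.8, 4.05 and 6.39 CPM in null libraries 1 to 4, against 7.76, 6.78 and 8.82 CPM in wild-type libraries 2 to 4. The null values lay on both sides of the narrower wild-type range, with means of 7.72 ± 3.09 CPM in null (SD, n = 4) and 7.78 ± 1.02 CPM in wild-type libraries (SD, n = 3). Its log2 fold change was -0.03 (SE 0.286, adjusted p = 0.96), and its sign changed when null library 3, null library 4 or wild-type library 4 was left out (0.17, 0.04 and 0.05).

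Upk3b, a uroplakin gene used as a marker of mesothelial cells, had 8.44, 1.74, 5.48 and 3.9 CPM in null libraries 1 to 4, against 1.87, 1.66 and 4.69 CPM in wild-type libraries 2 to 4. Null libraries 1 and 3 lay above all wild-type libraries, and null library 2 lay beside the lowest of them. The log2 fold change was 0.85 (SE 0.507, adjusted p = 0.326). It was 0.42 without null library 1 and 1.46 without wild-type library 4, neither called. Without null library 2 and wild-type library 4 together it was 1.75 (SE 0.387, adjusted p = 0.0476), which passed the threshold. Those 2 libraries held its lowest null and its highest wild-type value, so leaving them out necessarily raised the fold change. Upk3b was called in no other fit.

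Fam70a, now named Tmem255a, is an X-linked gene that encodes a transmembrane protein. It had 6.59, 5.45, 3.52 and 9.07 CPM in null libraries 1 to 4, against 0.535, 1.83 and 0.968 CPM in wild-type libraries 2 to 4. Every null library thus exceeded every wild-type library, and the values spread 2.57-fold among null libraries. These levels rest on 246, 179, 101 and 353 reads in null libraries and 24, 53 and 27 reads in wild-type libraries. The log2 fold change was 2.47 (SE 0.439, adjusted p = 0.00707), and among all tested genes its p ranked 230 of 14290. The gene kept its call with any 1 library left out, at log2 fold changes of 2.10 to 3.05 and adjusted p-values of 0.00278 to 0.0347. Without null library 2 and wild-type library 4 together the fold change was the same, 2.47, with an adjusted p of 0.0551. With the level of Y-linked genes as a covariate, a measure of the sex mixture of a pool, it was 2.10 (adjusted p = 0.0353).

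The gene Zbtb33 lies on the opposite strand and shares 10.6% of the exon bases of Fam70a in GRCm38. It had 19.7, 16.4, 20.2 and 12 CPM in null libraries 1 to 4, against 16.9, 19.3 and 18.5 CPM in wild-type libraries 2 to 4. These values overlapped, and the log2 fold change of Zbtb33 was -0.11 (SE 0.203, adjusted p = 0.784), against 2.47 for Fam70a. The closest relative, Tmem255b (listed as Fam70b), stayed at 0 to 0.0609 CPM.

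**Figure D2:**
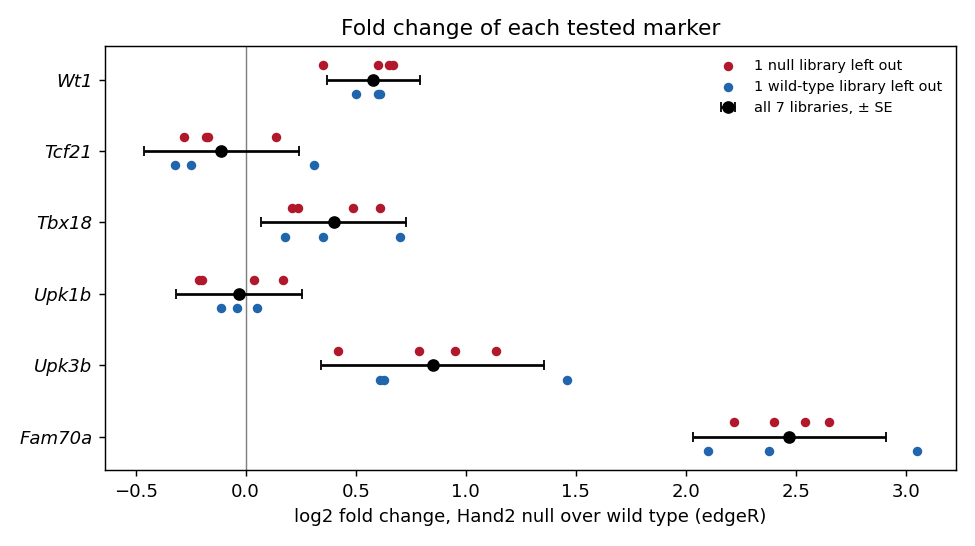
Log2 fold change (Hand2 null over wild type, edgeR) of the 6 markers that could be tested, with all 7 libraries (black, ± SE) and with 1 null (red) or 1 wild-type (blue) library left out. Fam70a stays between 2.10 and 3.05, Wt1 between 0.35 and 0.67, and the points of Tcf21 and Upk1b lie on both sides of 0.

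The stretch before the transcription start of Fam70a, the called marker, is shown with that of Tbx18 because HAND2 and its partners bind E-boxes (CANNTG, read on both strands, with all overlaps counted). Both are the 250 bases before the start in RefSeq's GRCm38.p6 annotation, 5′ to 3′ on the minus strand, with E-boxes in capitals. The Fam70a window is chrX:38252482-38252731 and the Tbx18 window chr9:87731261-87731510.
Fam70a: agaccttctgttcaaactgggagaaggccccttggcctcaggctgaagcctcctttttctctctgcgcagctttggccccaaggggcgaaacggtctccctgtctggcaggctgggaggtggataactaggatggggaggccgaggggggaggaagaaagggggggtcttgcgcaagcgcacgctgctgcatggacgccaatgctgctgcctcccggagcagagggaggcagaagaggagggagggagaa
Tbx18: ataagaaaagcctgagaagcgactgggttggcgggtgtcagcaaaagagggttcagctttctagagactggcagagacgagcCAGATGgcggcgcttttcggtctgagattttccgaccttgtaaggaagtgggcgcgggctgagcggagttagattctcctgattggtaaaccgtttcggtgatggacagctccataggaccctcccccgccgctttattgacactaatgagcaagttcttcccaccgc
The Fam70a window has no E-box, and 62.4% of its bases are G or C. The Tbx18 window has 1, CAGATG at position -168 from the start, which is the reverse complement of CATCTG, a form HAND proteins are known to bind. Windows were at hand for 2 more markers: that of Upk3b has 1 E-box, CATGTG, and that of Tcf21 has none. Over 32851 RefSeq windows of the same length, 66.2% hold an E-box and 14.4% hold CATCTG on either strand. The letters GATAA, the core bound by GATA factors, occur in the windows of Fam70a, Tcf21 and Upk3b and in 22.6% of all windows. GGAATG, the core bound by TEAD factors, occurs in that of Upk3b and in 12.6% of all windows.

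Msln encodes mesothelin, a surface glycoprotein of mature mesothelium. It had 0, 10, 7 and 2 reads in null libraries 1 to 4 (0, 0.304, 0.244 and 0.0514 CPM), against 0 reads in all 3 wild-type libraries. Null libraries 2 and 3 lay above the floor of 3 reads, and null libraries 1 and 4 under it, so detection split the null group. With no filter on low counts its edgeR adjusted p was 0.132. In the wild-type libraries a count of 0 allows a level of up to 0.0669 to 0.108 CPM.

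Levels of different markers were compared as RPKM, the CPM divided by exon length in kilobases (GENCODE M21). In null libraries Tcf21 was highest at 5.44 ± 2.02, followed by Wt1 at 4.94 ± 1.71, Upk1b at 3.70 ± 1.48 and Tbx18 at 3.58 ± 1.38 (SD, n = 4). In wild-type libraries Tcf21 was again highest at 5.88 ± 2.67, followed by Upk1b at 3.73 ± 0.487, Wt1 at 3.24 ± 0.26 and Tbx18 at 2.70 ± 0.914 (SD, n = 3). Each gene among these 4 overlapped, over libraries, with the next in the order. Upk3b (1.38 ± 0.799) and Fam70a (1.37 ± 0.516) differed by less than their spread in null libraries, whereas in wild-type libraries Upk3b (0.777 ± 0.48) lay above Fam70a (0.248 ± 0.147) in every library. Msln came last, at 0.049 ± 0.048 in null libraries and 0 in wild-type libraries.

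The markers did not all peak in the same library. The highest level of Wt1 and of Upk1b was in null library 2, of Tcf21 in wild-type library 4, of Tbx18 in null library 3, of Upk3b in null library 1 and of Fam70a in null library 4. The 7 markers together had 84.2, 84.6, 76.4 and 71.5 CPM in null libraries 1 to 4, against 48.3, 57.6 and 68.8 CPM in wild-type libraries 2 to 4. This sum was higher in every null library than in any wild-type library, but without Fam70a it overlapped, at 62.5 to 79.1 CPM in null libraries, against 47.7 to 67.8 CPM in wild-type libraries. Null library 2 had an unusual make-up: Wt1 held 54.5% of its marker reads, against 28.7% to 40% in the other null and 30.8% to 37.7% in the wild-type libraries. For each Tcf21 read there were 7.84 Wt1 reads in null library 2, against 1.41 to 1.97 in the other null and 1.01 to 2.23 in the wild-type libraries. The reads of Upk1b per read of Upk3b were 1.14, 6.25, 0.739 and 1.64 in null libraries 1 to 4, against 4.14, 4.08 and 1.88 in wild-type libraries 2 to 4.

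**Figure D3:**
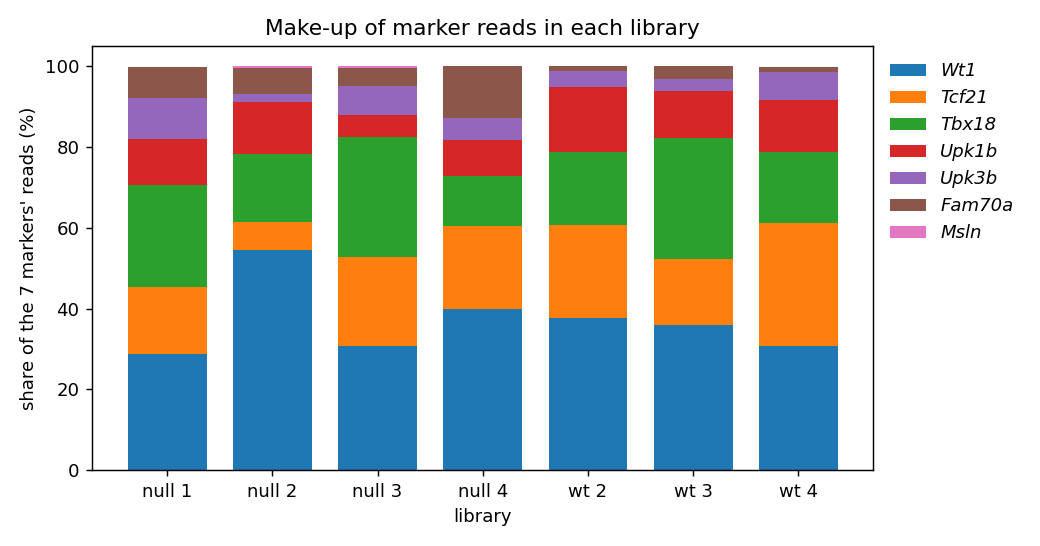
Share of the reads of the 7 markers that each marker held, in percent of their sum in a library (not per length), with null libraries left of wild-type libraries. Wt1 holds 54.5% in null library 2 and Tcf21 6.95%; Fam70a holds 4.61% to 12.7% in null libraries, against 1.11% to 3.18% in wild-type libraries.

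Likeness between genes was measured as the root mean square difference in log2 CPM, each gene centred on its mean over the 7 libraries. Among the markers the nearest pair was Wt1 and Upk1b (0.455), followed by Tcf21 and Upk3b (0.504), and the farthest Tcf21 and Fam70a (1.31). Of 11360 other genes, the nearest to Wt1 were Strbp (0.0821) and St7l (0.111), and the nearest to Upk1b were Afmid (0.129) and Fam54a (0.154). Tcf21 came closest to Pcdh18 (0.207) and Mfsd4 (0.242), Tbx18 to Tbc1d9 (0.17) and Id4 (0.185), and Upk3b to Cadps (0.262) and Gstm6 (0.414). The complement gene C3 (0.32) and the receptor kinase gene Kit (0.359) were nearest to Fam70a.

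Relatives of the markers were at low levels in both genotypes. Of 11 relatives, 9 had a row, and Wt1os and Upk3bl were not analysed here. The uroplakins Upk1a (0.365 to 0.642 CPM in null, 0.311 to 0.86 CPM in wild-type libraries) and Upk3a (0.589 to 1.83 CPM in null, 0.932 to 1.35 CPM in wild-type libraries) could be tested and were not called (adjusted p = 0.976 and 0.997). The other 7, namely Upk2, Mslnl, Fam70b, Tbx15, Tbx22, Msc and Tcf15, averaged at most 0.196 CPM in either group.

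Other genes known from the epicardium and proepicardium were divided by role. Of 51 such genes with a row, 47 could be tested, of which 7 (14.9%) were higher and 3 (6.38%) lower in the null, against 4.11% and 2.13% of all tested genes. Their median log2 fold change was 0.02, and that of all tested genes 0.022. These counts were 2 higher and 2 lower without wild-type library 2, 4 and 1 without null library 1, and 5 and 1 without null library 2 and wild-type library 4 together. The lists were chosen with earlier results of these data known. The shares, here and in the lists below, are therefore descriptive and do not test for an excess.

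Of 12 transcription factors tested, 1 rose and 2 fell (8.33% and 16.7%, against 4.11% and 2.13% of all tested genes). Osr1, expressed in venous pole and second heart field progenitors, had 17.9, 10.7, 26.8 and 20.6 CPM in null libraries 1 to 4, against 2.32, 5.78 and 0.932 CPM in wild-type libraries 2 to 4 (log2 fold change 2.65, SE 0.505, adjusted p = 0.0105). These ranges did not overlap, and without wild-type library 2 the adjusted p was 0.0705. Twist1, a factor of mesenchyme, had 2.98 to 7.78 CPM in null against 16.7 to 23.1 CPM in wild-type libraries, without overlap, and kept its call in each of 15 alternative fits. Sox9, which epicardium-derived and cushion mesenchyme share, had 41.6 to 55.1 CPM in null against 75.7 to 185 CPM in wild-type libraries, and lost its call without null library 1, and without null library 2 and wild-type library 4 together. Bnc1, basonuclin, a mesothelial zinc finger factor, was among those not called (1.11 ± 0.503 CPM in null, SD, n = 4, and 1.89 ± 0.419 CPM in wild-type libraries, SD, n = 3, adjusted p = 0.317). Nr2f2, also not called (edgeR adjusted p = 0.055), leaned the other way, with a log2 fold change of 0.81. It had 179 to 317 CPM in null against 108 to 163 CPM in wild-type libraries, a separation that 11.6% of all tested genes showed.

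Of 16 surface, junction and keratin genes tested, 5 rose and none fell, at a list median of 0.47 (4.11% of all tested genes rose, with a median of 0.022). Krt19, a keratin of simple epithelia and mesothelium, had 464, 561, 502 and 368 CPM in null libraries 1 to 4, against 89.2, 85.1 and 89.8 CPM in wild-type libraries 2 to 4 (log2 fold change 2.41, SE 0.161). Its partner Krt18 had 145 to 187 CPM in null against 72.1 to 78.1 CPM in wild-type libraries, and both keratins kept their calls in all 15 alternative fits. Gpm6a, a membrane glycoprotein gene, had 7.12 to 13.7 CPM in null against 3.94 to 4.24 CPM in wild-type libraries (adjusted p = 0.00894, but 0.0549 without wild-type library 2 and 0.0526 with the Y-linked covariate). Cav1, for caveolin, and Krt8, which was named after its value was seen, were the other 2 that rose (adjusted p = 0.0208 and 0.0284), and Cav1 lost its call without null library 1 or 2 or wild-type library 2 or 3, and with the Y-linked covariate (adjusted p = 0.0645). Among those not called was Lrrn4, a mesothelial surface gene, with 2.59 ± 1.31 CPM in null (SD, n = 4) and 3.26 ± 0.149 CPM in wild-type libraries (SD, n = 3). Its lowest value, 0.7 CPM, was in null library 2, which was also lowest in Tcf21 and Bnc1. Pdpn (log2 fold change 0.71, edgeR adjusted p = 0.0652) and Ezr (0.41, adjusted p = 0.113), also not called, leaned the other way. Both were higher in every null than in any wild-type library, as were 11.6% of all tested genes. Itga4 and Vcam1, an integrin and its ligand that hold epicardium and myocardium together, had log2 fold changes of -0.56 (SE 0.346) and 0.82 (SE 0.237), neither called.

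Of 19 signals and receptors tested, 1 rose and 1 fell, at a list median of -0.06. This was 5.26% in each direction, against 4.11% higher and 2.13% lower of all tested genes. The guidance ligand Slit3 had 17 to 25.8 CPM in null against 10.4 to 14.1 CPM in wild-type libraries (adjusted p = 0.0279). Fgf9, a growth factor of epicardium and endocardium, had 3.27 to 4.75 CPM in null against 6.23 to 11.9 CPM in wild-type libraries (adjusted p = 0.0292). Each lost its call without null library 1 or 2 or wild-type library 2 or 4. Aldh1a2, the retinoic acid synthesis enzyme of the epicardium, had 1.42 ± 0.26 CPM in null (SD, n = 4) and 0.764 ± 0.142 CPM in wild-type libraries (SD, n = 3). Its ranges did not overlap, as for 11.6% of all tested genes in this direction. It was not called (log2 fold change 0.88, SE 0.371, edgeR adjusted p = 0.167).

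**Figure D4:**
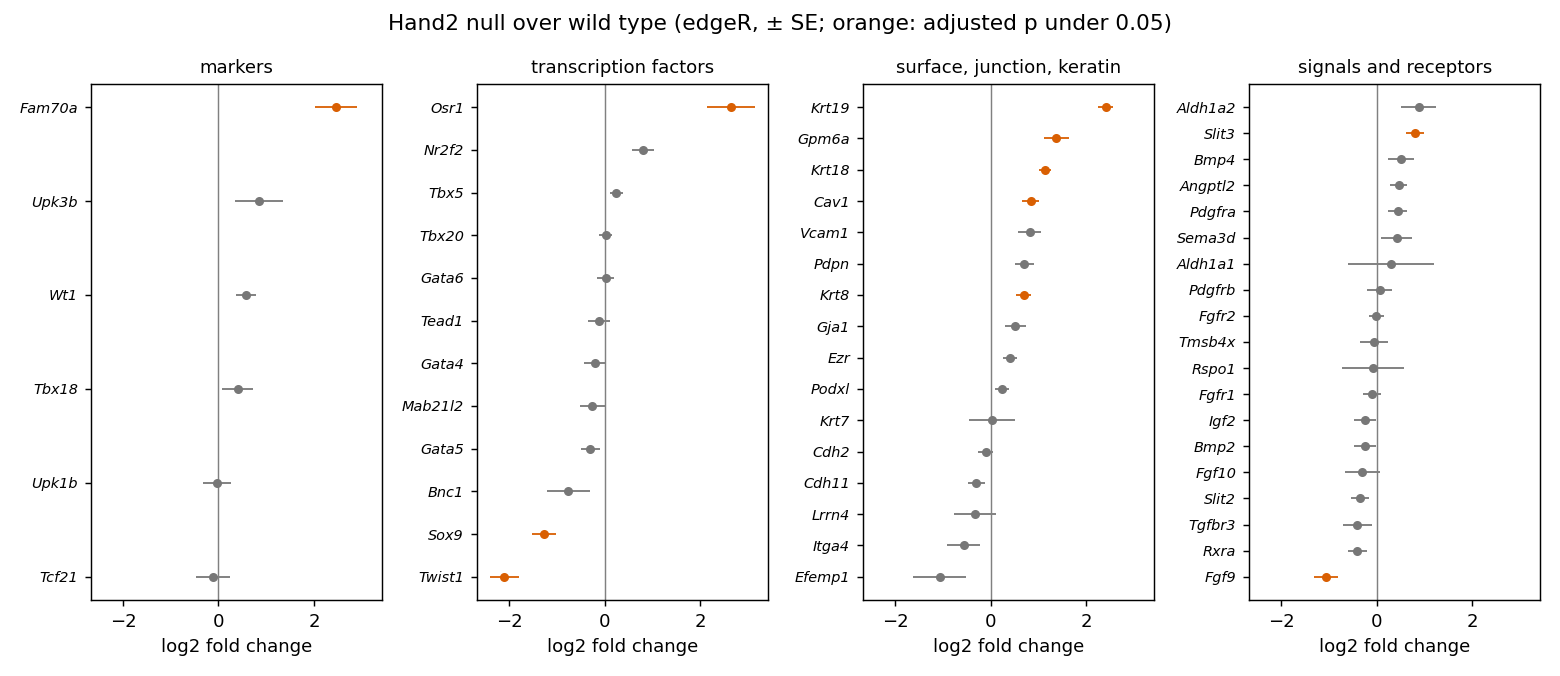
Log2 fold change (Hand2 null over wild type, edgeR, ± SE) of tested markers and of 3 groups of other genes known from the epicardium, each sorted by value. Orange points have an adjusted p under 0.05; they are 1 marker, 3 transcription factors, 5 surface, junction and keratin genes and 2 signals.

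Markers of the other tissues that a dissected canal could hold moved with genotype in part, and their counts stand beside the 4.11% of all tested genes that rose and the 2.13% that fell. Of 10 endocardial genes, all tested, 4 rose and none fell. Their summed level was 507 to 574 CPM in null libraries, against 344 to 405 CPM in wild-type libraries, and these ranges did not overlap. The endothelial receptor genes Tie1 (log2 fold change 1.10, adjusted p = 0.00288) and Kdr (0.94, adjusted p = 0.0056) kept their calls in all 15 alternative fits. Pecam1 (0.74, adjusted p = 0.0107) and Cldn5 (2.11, adjusted p = 0.0134) were also called. Cdh5 (0.51), Egfl7 (0.49), Emcn (0.34), Tek (0.08), Nfatc1 (-0.09) and Npr3 (-0.18) were not, at edgeR adjusted p-values of 0.094 to 0.867. The list thus did not move as a whole. The part of endocardium in the levels of Fam70a, Cav1 and other genes described here was not tested.

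Of 10 myocardial genes, all tested, 1 rose and 1 fell. The myosin heavy chain gene Myh7 had 993 to 1480 CPM in null libraries, against 650 to 698 CPM in wild-type libraries (adjusted p = 0.01), and the ventricular light chain gene Myl2 had 640 to 752 CPM in null libraries, against 972 to 1520 CPM in wild-type libraries (adjusted p = 0.0107). Of 6 primitive blood genes tested, none rose and 1 fell, the erythroid factor gene Klf1 (log2 fold change -1.16, adjusted p = 0.0426). Hba-a1 had a count of 0 in all 7 libraries, but the counts leave out reads aligned to several places. Whether such reads came from Hba-a1 was not tested. The calls of Myh7, Myl2 and Klf1 were lost in 4, 3 and 6 of 15 alternative fits, in this order.

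Of 6 sinus venosus markers, all tested, 1 rose (Isl1, adjusted p = 0.0131). Their summed level was 315 to 371 CPM in null libraries, against 217 to 301 CPM in wild-type libraries. Most of that sum was Tbx5, which is also among the epicardial transcription factors above, and Tbx3, and neither was called (adjusted p = 0.266 and 0.309). Of 10 septum transversum and liver markers, 6 could be tested and 2 of these rose (Hlx and Hhex). Their sums overlapped, at 28.4 to 60.2 CPM in null libraries, against 18.1 to 29.7 CPM in wild-type libraries. The liver gene Alb averaged 0.00872 CPM in null and 0.0119 CPM in wild-type libraries. Afp had 0.411 to 15.3 CPM in null against 0.657 to 3.62 CPM in wild-type libraries. Ttr (0.509 to 4.36 against 0.468 to 2.62 CPM) and Apoa1 (1.07 to 7.29 against 0.623 to 4.34 CPM) also overlapped. Afp, Ttr and Apoa1 were each highest in null library 3 and, among wild-type libraries, in library 4. None of them was called (edgeR adjusted p = 0.371, 0.621 and 0.651).

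Of 9 foregut endoderm markers, 6 could be tested and 1 of these rose (Sox17, which endothelium also expresses). Their sums overlapped, at 6.51 to 19.2 CPM in null libraries, against 4.91 to 10.2 CPM in wild-type libraries. Foxa1 and Shh were at 0.0536 to 0.304 and 0 to 0.514 CPM in null libraries and at 0 in wild-type libraries, whereas Foxa2 was at 0.0536 to 0.304 CPM in null libraries, against 0.0346 to 0.156 CPM in wild-type libraries. The epithelial genes Epcam and Cldn6 and the foregut factor gene Nkx2-1 had log2 fold changes of 0.17 (SE 0.624), -0.04 (SE 0.758) and 0.21 (SE 0.579), none called. Cdh1 (0.74, SE 0.787) and Sox2 (0.95, SE 0.98) leaned higher in the null but were not called either. The summed level of the endoderm markers was 6.51, 10.9, 15 and 19.2 CPM in null libraries 1 to 4. Fam70a had 6.59, 5.45, 3.52 and 9.07 CPM in the same libraries. The calls of Isl1, Hhex and Sox17 were lost in 2, 4 and 6 of 15 alternative fits, in this order, and that of Hlx in 3 of the 10 fits that tested it. All 4 were lost without wild-type library 2. The part of these tissues in the levels of Fam70a, Wt1 and the keratins was not tested.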

How the data were processed

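The authors deposited whole-number read counts per gene symbol, 1 table per library. Per the labels' protocols, 30 to 60 ng of total RNA with an integrity number of at least 8.5 was depleted of ribosomal RNA, amplified for 8 PCR cycles and sequenced as unstranded single reads of 50 nt. The submitters' processing notes name build mm9, TopHat2 2.0.13, SAMtools and HTSeq, whereas gene models and counter settings were not given in the sources used here. The 5 summary lines of each table (reads in no gene 7.31% to 14.21%, in several genes 1.46% to 1.69%, aligned to several places 9.08% to 13.81%) were left out. Reads were not independent molecules, so floors cover counting error only.

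CPM are counts over all gene reads of a library. The test was edgeR 4.0.16 (R 4.3.3), quasi-likelihood, TMM, default filter (minimum count 10), genotype as the only term, 7 libraries, with Benjamini-Hochberg adjustment over 14290 genes; SE is the log2 fold change over the square root of F. DESeq2 1.42.0 was an alternative. Scripts were tested on simulated data. The markers and lists were chosen with earlier results of these data known, and named genes followed a rule: all markers, the up to 4 called genes of smallest p in each related list, 2 in each list of neighbouring tissues, and the 2 nearest genes by likeness (mean of at least 1 CPM, offset 0.5 CPM); other genes named here were chosen after their values were seen. A gene of the neighbouring tissue lists is not reported here. Coordinates are GRCm38 and do not apply to the mm9 counts. Replicate libraries differed by more than sampling noise.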

Additional observations from a re-analysis of the deposited data

How the results depend on the processing

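Over 15 alternative fits, the count of markers called stayed at 1 higher and 0 lower, except without null library 2 and wild-type library 4 together, where Upk3b replaced Fam70a. Signs turned for Upk1b (0.02 with the Y-linked covariate, -0.21 to 0.17 with 1 library left out) and for Tcf21 (0.56 without null library 2 and wild-type library 4, -0.32 to 0.31 with 1 left out), and the cause was not tested. Related genes numbered 4 higher with the Y-linked covariate and 1 lower without null library 2 and wild-type library 4. With 1 library left out they ranged from 2 to 9 higher and 1 to 3 lower, and all genes from 210 to 946 higher and 46 to 652 lower, against 587 and 305. All genes called were 992 higher and 769 lower with DESeq2, 368 and 106 with the Y-linked covariate, and 298 and 123 without null library 2 and wild-type library 4. The replicate block, on the 6 libraries numbered 2 to 4, gave 761 higher and 578 lower, against 284 and 90 in the same libraries without it, and a Fam70a log2 fold change of 2.44 (adjusted p = 0.0112). The labels do not state that shared numbers pair libraries, so the main fit had no block. Libraries of shared number 2, 3 and 4 correlated at -0.09, 0.362 and 0.228 in their deviations from group means. Those of unlike number correlated at -0.327 to 0.166, and not every library correlated best with its own number. What the numbers mark was not tested. Msln lies at the floor of detection, and 3 wild-type libraries limit all tests.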
